A study of Mus musculus with 18 samples.

Results

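The 30 genes described here are mouse genes of cholesterol synthesis, of its control by SREBP (sterol regulatory element-binding protein) and of sterol transport: 5 genes of SREBP control, 8 of the mevalonate steps, 11 from squalene to cholesterol and 6 of sterol transport, storage and sensing. They are a list of named genes, matched by symbol to their Entrez IDs in a table of read counts for 26301 genes. Of the 30, 29 passed the filter on low counts that left 16539 genes to test, and all 29 had reads in each of 17 of the 18 libraries. The remaining member, Hmgcs1, had no read.

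Cholesterol in the brain is made locally, since lipoproteins of the blood hardly cross the blood-brain barrier, and astrocytes are known as a source of the cholesterol that neurons use. Its synthesis runs from acetyl-CoA through mevalonate and isoprenoids to squalene and then, by oxidation, ring closure and trimming, to cholesterol. The genes of the route are switched on by SREBP transcription factors, which the escort protein SCAP carries from the endoplasmic reticulum to the Golgi when sterols are low and which INSIG proteins hold back when sterols are high.

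The libraries came from mouse cortical astrocytes of newborn pups, kept in culture, in 6 groups of 3. The cells with neurons had received hippocampal neurons of TdTomato+ newborn mice and were collected at day 2, 4 or 7, and the cells alone were collected at the same days without added neurons. Both kinds of culture had been grown to confluence in medium with serum, moved to serum-free N2 medium, detached and sorted by TdTomato fluorescence, with the gate for TdTomato-negative cells set on control astrocytes. The labels name no strain and no promoter behind TdTomato. They do not tie the replicates to separate animals, so a p-value here measures only the spread of these cultures, which may be technical. The labels give each replicate number one date, so a library with neurons and one alone of the same day and number form a pair, 9 pairs in all.

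Levels are given in CPM, reads scaled to a common library size of 1000000 after TMM adjustment, in the order of replicate 1, 2 and 3. Levels are compared only within a gene, since they are not divided by gene length. Of the 18 libraries, 16 held 13950111 to 32623556 reads, so that 3 reads, the most that a count of 0 allows, equal 0.0743 to 0.179 CPM. The 2 others are called doubtful here. Replicate 1 alone at day 2 held 3242459 reads, of which 1 gene took 92.5%, and its TMM factor was 0.0459. It held 158 reads of the members, at most 40 for one gene. One read there is 6.72 CPM and 3 reads are 20.2 CPM, and 16 of the 29 tested members had 3 or fewer reads, 4 of them none. Replicate 1 with neurons at day 7 held 8966485 reads, of which 1 gene took 40.5%, with a TMM factor of 0.665 against 1.17 to 1.39 in the 16. Such limits cover counting error only. In the GENCODE annotation of GRCm38, exons of 11 of the 30 members share bases with another gene, in 7 with a protein-coding one: Srebf1 with Rai1, Ggps1 with Arid4b, Fdft1 with Ctsb, Npc1 with Rmc1, Tm7sf2 with Vps51, Fdps with Gm43738 and Cyp51 with Akap9. Whether the counting used the strand is not stated, so part of their reads may belong to the partner.

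Of 10 astrocyte markers, all had reads in both kinds of culture, with a summed level of 1321 to 5825 CPM with neurons and 578 to 5021 CPM alone. The 11 neuron markers summed to 198 to 371 CPM with neurons, where all 11 had reads, and to 158 to 437 CPM alone, where 10 had reads and Nefl had none. Map2 and Stmn2 made up most of this sum in every library of both cultures. Dcx, in contrast, had almost no reads in cells alone and more in most, though not all, libraries with neurons. The sum is therefore no measure of how much neuronal RNA each culture held. Microglia and macrophage markers summed to 9.14 to 411 CPM with neurons and 4.12 to 208 CPM alone. Oligodendrocyte-lineage markers summed to 95.5 to 459 CPM with neurons and 129.8 to 503 CPM alone, endothelial and mural markers to 19.3 to 113 CPM with neurons and 59.9 to 108 CPM alone, and fibroblast markers to 27.9 to 233 CPM with neurons and 26.8 to 182 CPM alone. The endothelial gene Cldn5 and the pericyte gene Kcnj8 had no read in any library. By day, the summed levels of the groups overlapped for every marker list except endothelial and mural markers at day 4, at 99.7 to 113 CPM with neurons and 65.7 to 98.8 CPM alone. No single marker passed the test. Microglia and macrophage markers were fitted higher with neurons in 10, 7 and 11 of 11 at days 2, 4 and 7 (median log2 fold change 0.90, 0.19 and 2.62, and 1.08, 0.16 and 2.82 without the 2 doubtful libraries). Of the 8 tested neuron markers it was 7, 6 and 7 (0.63, 0.47 and 1.87, and 0.59, 0.45 and 1.22 without the doubtful libraries). Of 10 astrocyte markers it was 4, 8 and 5 (−0.054, 0.29 and 0.0028, and −0.44, 0.29 and 0.11 without them), and of 6 tested fibroblast markers 2, 3 and 6 (−0.35, 0.020 and 0.63, and −0.35, 0.027 and 1.08 without them). For 8 oligodendrocyte-lineage markers it was 3, 4 and 5 (−0.30, −0.052 and 0.67, and −0.26, −0.057 and −0.32 without them), and for 9 endothelial and mural markers 2, 5 and 6 (−1.05, 0.0061 and 0.19, and −0.96, −0.0056 and 0.29 without them). Their part in the differences of the members between the cultures was not tested. In such bulk samples, fewer cells of a type and less RNA per cell cannot be told apart.

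Promoter windows of 250 bases before to 50 bases after the start, from RefSeq on build GRCm38.p6, were found for 24 of the 30 members. Shown are the windows of Srebf2 and Insig1, the control genes on which the results below turn, and of Hmgcs1, the member without reads. Capitals mark 3 motifs on either strand: TCACNCCAC, the core of a sterol regulatory element bound by SREBP, CCAAT, the box of NF-Y, and GGGCGG, the box of Sp1, factors that act beside SREBP at many sterol-regulated promoters. None of the marked motifs overlap one another in these windows.
Srebf2, chr15:82147019-82147318, plus strand: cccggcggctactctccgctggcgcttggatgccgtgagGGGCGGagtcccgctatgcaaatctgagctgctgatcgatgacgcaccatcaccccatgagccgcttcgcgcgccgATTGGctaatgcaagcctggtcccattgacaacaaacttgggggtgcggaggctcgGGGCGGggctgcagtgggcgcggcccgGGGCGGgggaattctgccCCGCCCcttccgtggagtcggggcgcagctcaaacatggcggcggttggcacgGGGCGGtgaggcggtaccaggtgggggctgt
Insig1, chr5:28071162-28071461, plus strand: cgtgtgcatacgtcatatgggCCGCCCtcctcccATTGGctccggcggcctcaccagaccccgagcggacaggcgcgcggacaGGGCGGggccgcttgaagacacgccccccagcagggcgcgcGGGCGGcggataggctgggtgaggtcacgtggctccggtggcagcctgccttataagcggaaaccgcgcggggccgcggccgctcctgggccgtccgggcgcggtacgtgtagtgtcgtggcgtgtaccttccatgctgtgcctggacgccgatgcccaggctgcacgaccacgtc
Hmgcs1, chr13:119690101-119690400, plus strand: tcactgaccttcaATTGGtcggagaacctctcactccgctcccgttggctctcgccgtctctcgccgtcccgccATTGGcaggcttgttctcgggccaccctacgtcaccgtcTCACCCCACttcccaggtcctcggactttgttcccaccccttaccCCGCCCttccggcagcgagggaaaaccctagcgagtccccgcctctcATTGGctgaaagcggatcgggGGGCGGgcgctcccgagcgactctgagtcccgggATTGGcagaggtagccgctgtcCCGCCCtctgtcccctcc
The element TCACCCCAC stood 137 bases before the start of Hmgcs1, 39 bases from the nearest CCAAT, and Hmgcs1 was the only member of the 24 with a match to TCACNCCAC, against 1.24% of the 32851 windows in the table. CCAAT was found in windows of 21 of the 24 members, against 37.4% of all windows, and GGGCGG in windows of 21 of the 24, against 35.7%. Members can have several windows (32 for the 24), so that the share of members and the share of windows are not the same measure, and the sterol element is known in many spellings that these letters do not cover. A match describes the letters only.

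At none of the 3 days did a member pass the test of cells with neurons against cells alone, the quasi-likelihood test of edgeR at an adjusted p under 0.05, and 0% of all tested genes passed at day 2, 0% at day 4 and 0% at day 7. For the average of the 3 days, 0% passed as well. At an unadjusted p under 0.05, 1 member was higher with neurons at day 2, Srebf2, against 0.472% of all tested genes. No member was past this limit at day 4, at day 7 or for the average. Without the 2 doubtful libraries and with replicate number as a block, more members were past it. Higher were 2 members at day 2, 1 at day 4 and 4 for the average, against 170, 110 and 250 of 17092 genes. Lower was 1 member at day 7, against 283 genes. No member passed at the adjusted p in that fit. DESeq2 called no member either. The values below therefore describe these libraries and are read beside the same measure over all tested genes. Unless the block is named, standard errors and p-values come from the edgeR fit to all 18 libraries, which does not use the pairing.

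Of the SREBP control genes, Srebf2, Srebf1, Scap and Insig1 were higher with neurons in 3 of 3 pairs at day 2, while at day 7 the same 4 genes gave 1, 1, 2 and 0 of 3 pairs. Srebf2 encodes SREBP2, the main activator of cholesterol synthesis. At day 2 it had 176, 235 and 257 CPM with neurons, against 67.2, 157 and 159 CPM alone. Its day 4 levels were 181, 156 and 242 CPM with neurons, against 105, 164 and 145 CPM alone. Its day 7 levels were 109.8, 167 and 210.1 CPM with neurons, against 177, 170.4 and 146 CPM alone. The groups did not overlap at day 2, where the lowest library with neurons stood above the highest one alone, also with the doubtful library left out, and they overlapped at days 4 and 7. The means were 223 ± 41.9 CPM with neurons and 128 ± 52.4 CPM alone (SD, n = 3 each) at day 2. The fitted log2 fold change was 0.74 (SE 0.34) at day 2, 0.48 (SE 0.33) at day 4 and −0.017 (SE 0.33) at day 7, with unadjusted p of 0.0427, 0.165 and 0.959 in edgeR and an adjusted p of 1, 1 and 0.996. Without the 2 doubtful libraries the log2 fold changes were 0.49, 0.47 and 0.15.

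Srebf1 encodes SREBP1, whose main targets are genes of fatty acid synthesis. It had 77.5, 136 and 209.8 CPM with neurons, against 47.1, 102 and 133 CPM alone at day 2. Day 4 gave 95.0, 97.1 and 349 CPM with neurons, against 58.2, 93.1 and 174 CPM alone. Day 7 gave 34.8, 82.1 and 262 CPM with neurons, against 141, 87.5 and 197 CPM alone. Replicate 3 was the highest of its group at each day in both kinds of culture, and the groups overlapped at every day. Its fitted log2 fold change was 0.50 (SE 0.66) at day 2, 0.73 (SE 0.65) at day 4 and −0.16 (SE 0.65) at day 7, so each was within about its standard error or little above it, and 0.25, 0.73 and 0.22 without the doubtful libraries. At day 4 the fitted log2 fold change was −0.17 without replicate 3 with neurons (349 CPM) and 1.28 without replicate 3 alone. Either fit keeps replicate 3 in only 1 of the cultures at that day. The day 4 pairs differed by 0.71, 0.060 and 1.00 on the log2 scale.

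Scap, the escort of both factors, had 369.8, 238 and 208 CPM with neurons, against 269, 219.7 and 137 CPM alone at day 2. At day 4 it had 266, 206 and 238 CPM with neurons, against 184, 204 and 142 CPM alone, and every library with neurons was above every one alone. At day 7 it had 261, 164 and 208 CPM with neurons, against 222, 166 and 169 CPM alone, with overlap, as at day 2. Its log2 fold change was 0.41 (SE 0.32), 0.42 (SE 0.32) and 0.18 (SE 0.32) at days 2, 4 and 7 (unadjusted p 0.221, 0.201 and 0.574 in edgeR), and 0.61, 0.41 and −0.043 without the doubtful libraries. The difference at day 4 was small in replicate 2, where the pair differed by 0.014 on the log2 scale.

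Insig1, which holds the SCAP complex in the endoplasmic reticulum and is itself a target of SREBP, was higher with neurons in 3 of 3 pairs at day 2 and lower in 3 of 3 pairs at day 7. At day 2 it had 85.3, 79.6 and 219 CPM with neurons, against 13.4, 32.7 and 181 CPM alone. On day 4 there were 68.0, 44.4 and 197 CPM with neurons, against 59.9, 53.0 and 197 CPM alone. On day 7 there were 67.4, 47.6 and 140.4 CPM with neurons, against 113, 152 and 231 CPM alone. Replicate 3 stood above the other libraries of its group in every group, so that the groups overlapped at each day and the difference shows only within pairs. The value of 13.4 CPM alone at day 2 rests on 2 reads in the doubtful library, while the pairs of replicates 2 and 3 differed by 1.28 and 0.28 on the log2 scale. On the log2 scale the fold change was 0.61 (SE 0.73) at day 2, −0.0027 (SE 0.72) at day 4 and −0.95 (SE 0.73) at day 7 (unadjusted p 0.415, 0.997 and 0.206 in edgeR), and 0.26, −0.0029 and −0.88 without the doubtful libraries. With replicate number as a block, the unadjusted p in edgeR was 0.0185 at day 2 and 0.00593 at day 7, and the adjusted p was 1 and 0.564.

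Insig2, the second INSIG protein, was the steadiest member across the 16 libraries, at 17.1 to 26.3 CPM with a coefficient of variation of 11.0%. By day 4 the levels were 22.3, 21.3 and 23.4 CPM with neurons, against 20.1, 18.9 and 17.1 CPM alone, and the groups did not overlap, with 21.3 CPM in the lowest library with neurons and 20.1 CPM in the highest one alone. Its log2 fold change at day 4 was 0.25 (SE 0.51). In the doubtful day 2 library it had no read, which allows up to 20.2 CPM.

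**Figure D1:**
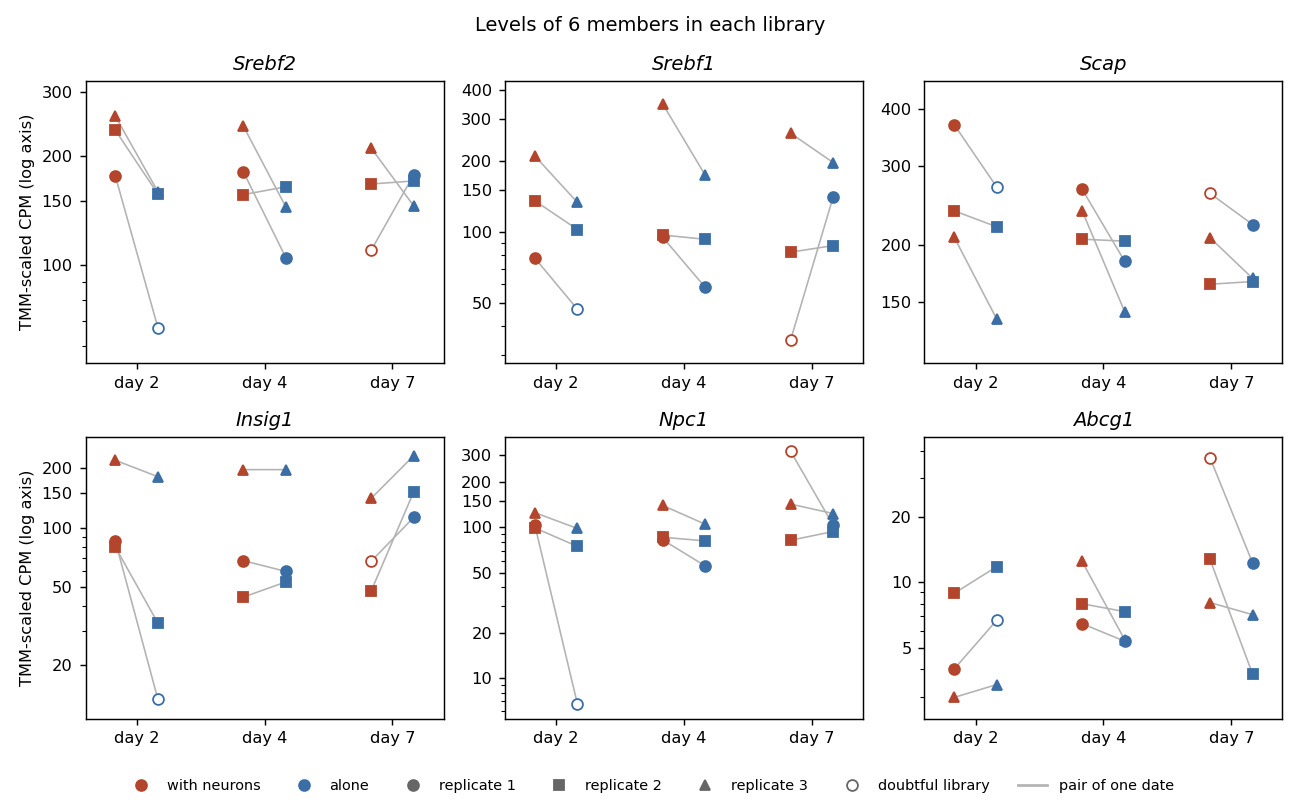
Level of 6 members in each library, as TMM-scaled CPM on a log axis, by day, with cells with neurons (red) left of cells alone (blue) and lines joining the pairs of one date. Open symbols are the 2 doubtful libraries. Srebf2 at day 2 separates the groups, and Insig1 pairs slope one way at day 2 and the other way at day 7. The open symbols are extremes for Npc1 at days 2 and 7 and for Abcg1 at day 7 only.

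In the mevalonate steps no member differed beyond the test, and Hmgcs1 could not be described. Hmgcs1, which makes HMG-CoA for the rate-limiting reductase, had 0 reads in all 18 libraries, which allows up to 0.0743 to 0.179 CPM in the 16 libraries and up to 0.504 and 20.2 CPM in the doubtful ones at day 7 and day 2. Its neighbours on the chromosome in the RefSeq order, Ccl28, Nim1k, Zfp131 and AF067063, also had 0 reads in all 18 libraries, while Paip1, 4833420G17Rik and Tmem267, farther out on one side, had reads in all 18, with medians of 1533.5, 490.0 and 312 reads. Of 20846 protein-coding genes in the table, 2493 had no read. The part of the mapping or the counting in this gap was not tested, so the zeros are not read as an absence of Hmgcs1 RNA.

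Acat2, the cytosolic thiolase that joins acetyl-CoA units at the head of the route, was higher with neurons in all 7 pairs without a doubtful library. The share of all tested genes higher in all 7 was not computed, and 7.67% were higher in at least 6. At day 2 Acat2 had 12.2, 21.0 and 17.8 CPM with neurons, against 0, 13.6 and 16.9 CPM alone. The 0 is a library in which up to 20.2 CPM could go unread, so Acat2 has no known direction in that pair. Its day 4 levels were 10.6, 10.7 and 13.8 CPM with neurons, against 4.64, 9.97 and 7.84 CPM alone. By day 7 the levels were 18.5, 9.69 and 12.9 CPM with neurons, against 6.16, 8.99 and 9.18 CPM alone. Every library with neurons was above every one alone at days 4 and 7, by small steps in replicate 2, where the pairs differed by 0.10 and 0.11 on the log2 scale. Its paralog Acat3 lies near it on the chromosome, and how reads common to both were counted is not known. The log2 fold change was 0.42 (SE 0.55), 0.65 (SE 0.53) and 0.75 (SE 0.53) at days 2, 4 and 7, and 0.61 (SE 0.31) for the average of the days (unadjusted p 0.0654 and adjusted p 0.982 in edgeR). Without the doubtful libraries the values were 0.15, 0.63 and 0.42 at the 3 days and 0.40 for the average.

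Mvd, which makes isopentenyl diphosphate by decarboxylation, had 14.0, 13.7 and 10.6 CPM with neurons, against 6.72, 7.74 and 10.8 CPM alone at day 2. Day 4 gave 6.75, 4.80 and 1.67 CPM with neurons, against 6.51, 5.42 and 9.12 CPM alone. Its day 7 levels were 34.6, 6.89 and 10.4 CPM with neurons, against 7.32, 8.24 and 7.27 CPM alone. The log2 fold change of −0.67 (SE 0.60) at day 4 came from replicate 3, and without replicate 3 it was −0.048. At day 7 the value was 1.18 (SE 0.60) (unadjusted p 0.0664, adjusted p 0.555 in edgeR) and 0.13 without the doubtful libraries, since 34.6 CPM came from the doubtful library with neurons.

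The remaining mevalonate members gave no order between the cultures that held across days. Idi1, the isomerase of isopentenyl diphosphate, had the widest range of all members over the 16 libraries, at 4.79 to 63.6 CPM, 13.3-fold. Mvk and Pmvk, the kinases that phosphorylate mevalonate in turn, ranged over 9.82 to 29.6 CPM and 10.8 to 28.4 CPM. Fdps, which makes farnesyl diphosphate, ranged over 7.03 to 20.4 CPM, and Ggps1, which leads off to geranylgeranyl groups for proteins, over 18.9 to 47.8 CPM. Their log2 fold changes at day 2 ran from −0.26 for Pmvk to 0.54 for Idi1, with standard errors of 0.40 to 0.88.

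From squalene to cholesterol, 9 of 11 members were fitted higher with neurons at day 2, 9 of 11 at day 4 and 6 of 11 at day 7. Of all tested genes it was 53.3%, 48.6% and 50.2%. Without the doubtful libraries 6, 9 and 4 members were higher, and with replicate number as a block as well 10, 9 and 4. None passed. Sqle encodes squalene epoxidase, a second rate-limiting enzyme. At day 2 it had 132, 144 and 221 CPM with neurons, against 94.1, 88.9 and 211 CPM alone. At day 4 it had 161, 98.7 and 153 CPM with neurons, against 106, 113 and 139.7 CPM alone. Day 7 gave 32.1, 115 and 183 CPM with neurons, against 125, 207 and 175 CPM alone. The groups overlapped at each day, and the pair differences at day 2 were 0.48, 0.69 and 0.065 on the log2 scale. Its fitted log2 fold change was 0.30 (SE 0.48), 0.20 (SE 0.47) and −0.62 (SE 0.47), and 0.14, 0.19 and −0.24 without the doubtful libraries.

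Fdft1, squalene synthase, had 90.8, 109 and 82.8 CPM with neurons, against 26.9, 57.2 and 92.2 CPM alone at day 2, with overlap in replicate 3. Its log2 fold change there was 0.57 (SE 0.43) (unadjusted p 0.204 in edgeR), and at day 7 it was 0.21 (SE 0.42), or 0.34 and 0.55 without the doubtful libraries. Lss, the cyclase that makes lanosterol, had 26.5, 23.6 and 69.0 CPM with neurons, against 6.72, 18.2 and 39.6 CPM alone at day 2. It was higher with neurons in 3 of 3 pairs, by 1.96 (with the doubtful library), 0.37 and 0.80 on the log2 scale. Its fitted log2 fold change was 0.68 (SE 0.49). Without replicate 3 with neurons it was 0.018, and without replicate 3 alone 1.38. Either of these fits keeps replicate 3 in only 1 of the cultures at that day. At day 7 Lss gave −0.15 (SE 0.48), and without the doubtful libraries the values at days 2 and 7 were 0.45 and −0.42.

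Msmo1 and Ebp, a C4-demethylation enzyme and a sterol isomerase, had their largest values at day 7 in the doubtful library. Msmo1 had 334, 116 and 153 CPM with neurons, against 111, 121 and 134 CPM alone. Ebp had 43.9, 14.3 and 14.2 CPM with neurons, against 10.1, 8.99 and 13.2 CPM alone. For Ebp every library with neurons was above every one alone at day 7, also without the doubtful one, though at day 2 the 2 sound pairs ran the other way, with 12.4 and 9.52 CPM with neurons and 14.7 and 13.6 CPM alone. The log2 fold changes at day 7 were 0.72 (SE 0.38) for Msmo1 and 1.16 (SE 0.56) for Ebp, with adjusted p of 0.572 and 0.535 in edgeR, and 0.089 and 0.35 without the doubtful libraries.

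Hsd17b7, a sterol ketone reductase, was the only member with, at any of the 3 days, every library with neurons below every one alone. At day 7 it had 30.4, 27.8 and 29.4 CPM with neurons, against 33.3, 43.5 and 33.8 CPM alone, with a log2 fold change of −0.34 (SE 0.36). Nsdhl, a dehydrogenase of the C4-demethylation complex, had 22.5, 17.99 and 20.4 CPM with neurons, against 12.5, 17.8 and 17.1 CPM alone at day 7, without overlap, and 0.36 (SE 0.41) on the log2 scale, or 0.23 without the doubtful libraries. Cyp51, the demethylase of lanosterol, was lower with neurons in 3 of 3 pairs at day 7, with 77.2, 80.2 and 136 CPM with neurons, against 93.1, 142 and 138 CPM alone, and its log2 fold change was −0.34 (SE 0.51). Over the 16 libraries the others ranged over 30.7 to 137 CPM for Sc5d, a sterol desaturase, 7.57 to 23.3 CPM for Dhcr7, a reductase of the last steps, and 4.98 to 13.6 CPM for Tm7sf2, a sterol C14 reductase.

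**Figure D2:**
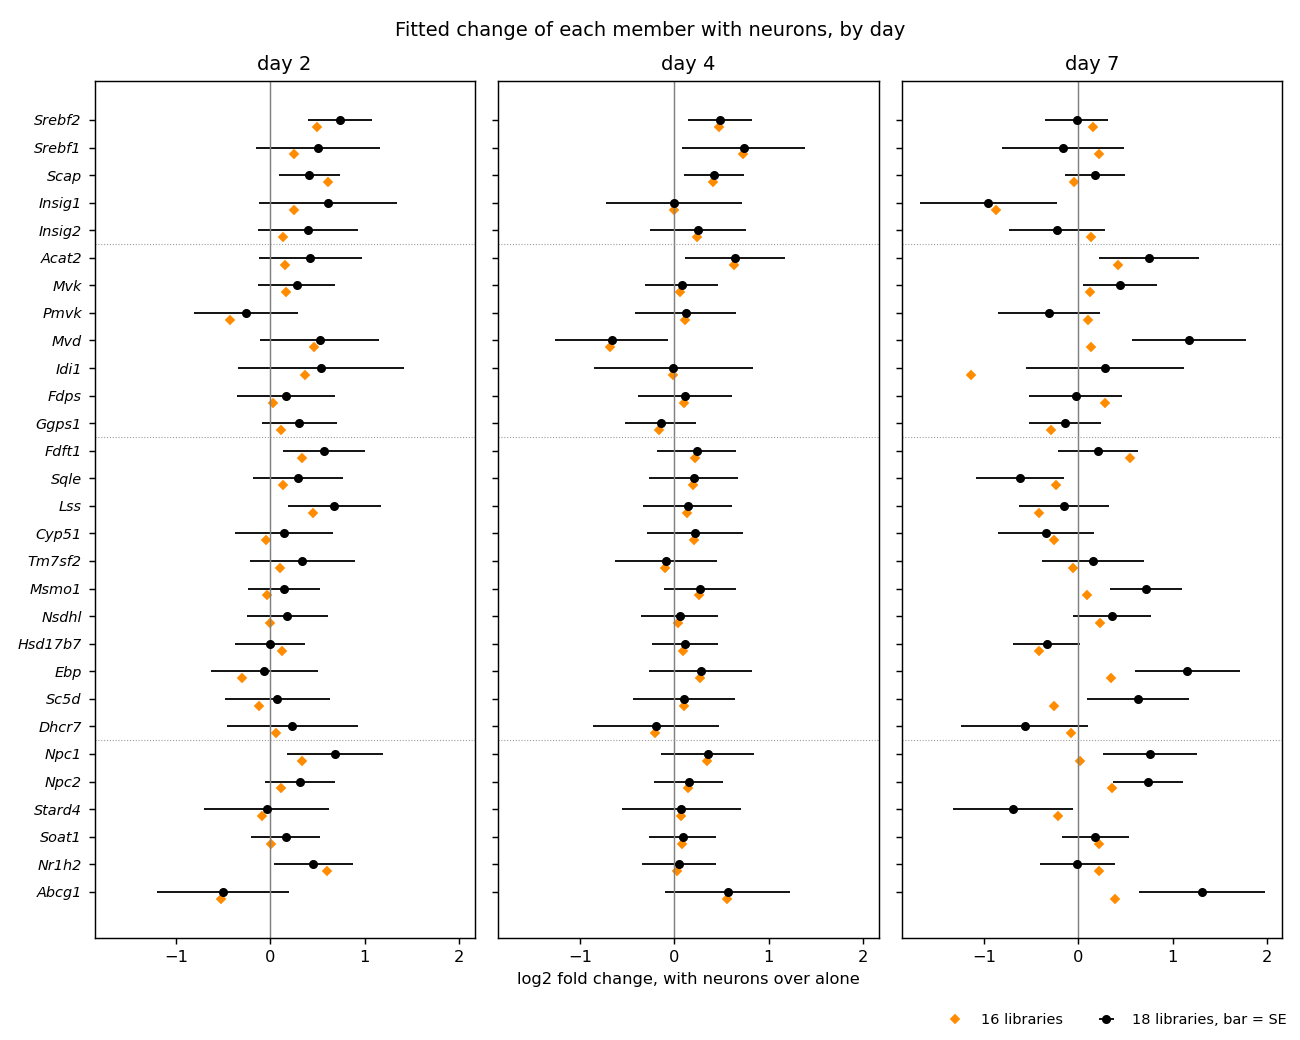
Fitted log2 fold change of the 29 tested members, with neurons over alone, at days 2, 4 and 7, ordered by step (dotted lines). Black points and bars are the fit to 18 libraries with its standard error, and orange diamonds the fit to 16 libraries. At day 7 the diamonds of Mvd, Idi1, Ebp, Npc1 and Abcg1 lie far left of the points.

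Among the genes of transport and storage, Npc1, which moves sterol out of late endosomes, had 103, 98.9 and 125 CPM with neurons, against 6.72, 74.6 and 98.0 CPM alone at day 2. Every library with neurons was above every one alone, by 98.9 CPM against 98.0 CPM at the nearest, and the 6.72 CPM alone rests on 1 read in the doubtful library. On day 7 there were 319, 81.9 and 142 CPM with neurons, against 103, 93.6 and 123 CPM alone, again with the doubtful library as the extreme. On the log2 scale the fold change was 0.69 (SE 0.51) at day 2 and 0.76 (SE 0.50) at day 7, and 0.34 and 0.017 without the doubtful libraries. Npc2, its soluble partner in the lysosome, had 212, 93.5 and 144 CPM with neurons, against 85.0, 94.1 and 89.9 CPM alone at day 7, with a log2 fold change of 0.74 (SE 0.37) (adjusted p 0.544 in edgeR) that was 0.35 without the doubtful libraries.

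Abcg1, a sterol exporter and target of the LXR receptors, was lower with neurons in 3 of 3 pairs at day 2 and higher in 3 of 3 pairs at days 4 and 7. At day 2 it had 4.01, 8.91 and 2.97 CPM with neurons, against 6.72, 11.8 and 3.41 CPM alone. On day 4 there were 6.47, 7.98 and 12.5 CPM with neurons, against 5.38, 7.34 and 5.45 CPM alone. By day 7 the levels were 37.1, 12.7 and 8.08 CPM with neurons, against 12.3, 3.80 and 7.12 CPM alone. The groups overlapped at each day, and the day 2 value of replicate 1 alone is a single read. The log2 fold change was −0.50 (SE 0.70), 0.56 (SE 0.66) and 1.32 (SE 0.67) at days 2, 4 and 7, with adjusted p of 1, 1 and 0.549 in edgeR, and the day 7 value was 0.39 without the doubtful libraries. Nr1h2, which encodes LXR beta, had a log2 fold change of 0.46 (SE 0.42) at day 2 and −0.010 (SE 0.39) at day 7, or 0.60 and 0.22 without the doubtful libraries. Soat1, which esterifies cholesterol for storage, ranged over 79.6 to 201 CPM in the 16 libraries and Stard4, a cytosolic sterol carrier, over 15.0 to 49.5 CPM.

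Counted over the 29 tested members, 24 were fitted higher with neurons at day 2 (median log2 fold change 0.31), against 53.3% of all tested genes. At day 4 it was 23 (median 0.12), against 48.6%, and at day 7 15 (median 0.16), against 50.2%. For the average of the days it was 23 (median 0.22), against 52.6%. Without the doubtful libraries 21 members were fitted higher at day 2 (median 0.12) and 23 at day 4 (median 0.11). It was 17 at day 7 (median 0.10) and 18 for the average (median 0.10). Of 17092 genes tested, 8377, 7951, 8447 and 8041 were higher in that order. The medians at day 2 and for the average were less than in all 18 libraries. The 16 libraries lack replicate 1 alone at day 2 and with neurons at day 7, so the dates are unequal there. With replicate number as a block as well, 26, 24, 15 and 18 members were higher (medians 0.18, 0.15, 0.050 and 0.11). Of the genes tested it was 7880, 7839, 8169 and 7457. By step, the median log2 fold change of SREBP control was 0.50, 0.42 and −0.16 at days 2, 4 and 7, with 5, 4 and 1 of 5 fitted higher. That of the mevalonate members was 0.31, 0.077 and 0.28, of squalene to cholesterol 0.18, 0.14 and 0.16, and of transport 0.24, 0.12 and 0.46. Without the doubtful libraries SREBP control gave 0.26, 0.41 and 0.13, with 5, 4 and 3 of 5 fitted higher, so that its direction at day 7 turned. The mevalonate members gave 0.15, 0.061 and 0.13, squalene to cholesterol 0.057, 0.13 and −0.081, which turned as well at day 7, and transport 0.062, 0.11 and 0.22. With the block as well, SREBP control gave 0.47, 0.41 and 0.050, with 5, 4 and 3 of 5 fitted higher. The mevalonate members then gave 0.18, 0.13 and 0.11, squalene to cholesterol 0.15, 0.12 and −0.16, and transport 0.11, 0.11 and 0.20.

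At day 2, 11 of the 29 members were higher with neurons in 3 of 3 pairs, against 15.2% of all tested genes, and 1, Abcg1, was lower in 3 of 3, against 8.48%. At day 4 the counts were 7 higher, against 10.7%, and 0 lower, against 14.8%. At day 7 they were 4 higher, against 14.2%, a share like that of all genes, and 3 lower (Insig1, Cyp51 and Hsd17b7), against 15.8%. Over the 7 pairs without a doubtful library, 7 members (Srebf1, Scap, Insig2, Acat2, Npc1, Soat1 and Nr1h2) were higher with neurons in at least 6, against 7.67% of all tested genes, and 0 members were lower in at least 6, against 8.5%. Members with every library with neurons above every one alone were 2 at day 2 (Srebf2 and Npc1), against 3.26%, 3 at day 4 (Scap, Insig2 and Acat2), against 2.05%, and 3 at day 7 (Acat2, Nsdhl and Ebp), against 4.29%. With every library with neurons below, they were 0 at day 2, against 2.27%, 0 at day 4, against 3.92%, and 1 at day 7, against 5.58%. At day 2 the direction in the pair of replicate 1 rests, for 16 members, on 3 or fewer reads alone. The pairs share dates and the members share a pathway, so these counts carry no test.

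The pairs of one day differed among themselves. The median log2 difference over the 29 members at day 2 was 1.05 in replicate 1, where the library alone is doubtful and all tested genes gave 0.63, and 0.40 and −0.026 in replicates 2 and 3, where all genes gave −0.045 and −0.014. At day 4 the members gave 0.42, −0.049 and 0.13, against 0.031, −0.021 and −0.15 for all genes. At day 7 they gave −0.015, −0.10 and 0.19, against −0.64, 0.024 and 0.070. Within SREBP control the pair medians were 1.39, 0.40 and 0.60 at day 2, 0.53, 0.014 and 0.74 at day 4 and −0.74, −0.027 and 0.30 at day 7. All 5 control genes were higher with neurons in replicate 1 (with the doubtful library) and replicate 3 at day 2 and in replicate 1 at day 4, while in replicate 2 it was 4 of 5 at day 2 and 3 of 5 at day 4.

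**Figure D3:**
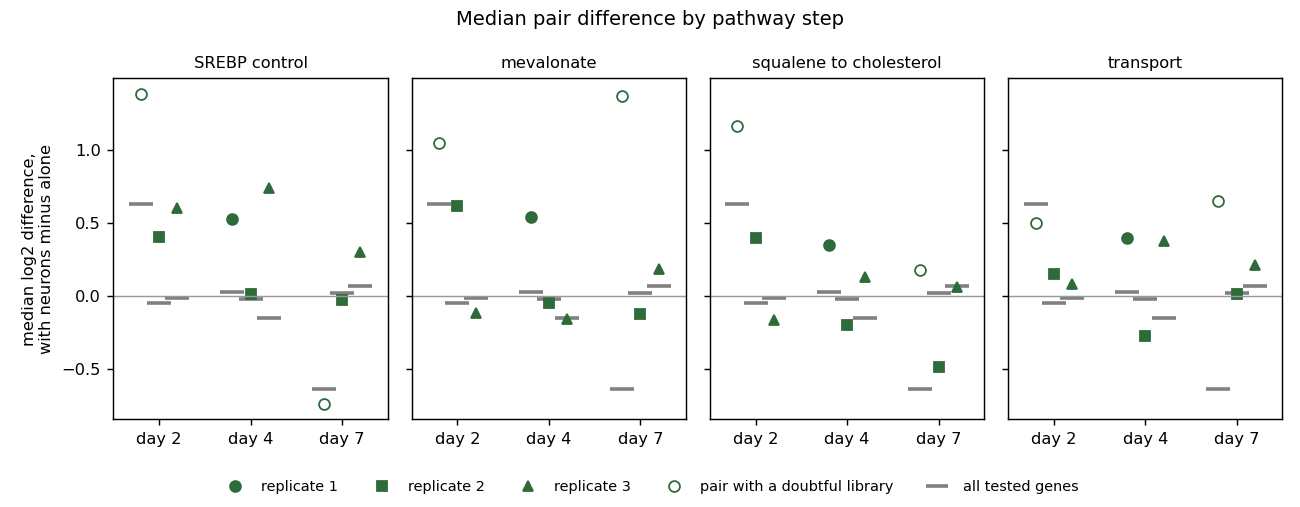
Median log2 difference, with neurons minus alone, over the members of each step, for each pair and day; open circles are pairs with a doubtful library and grey bars are all tested genes of the same pair. SREBP control lies above the grey bars in all 3 pairs of days 2 and 4, and at day 7 in replicate 3 but in neither of the others.

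The difference between days was tested directly. No member passed, and 0% of all tested genes passed in each of the 3 differences of the neuron effect, day 4 against day 2 (0%), day 7 against day 2 (0%) and day 7 against day 4 (0%). From day 2 to day 4, 11 of 29 members had a larger fitted effect at day 4, or 16 without the doubtful libraries, against 46.7% of all tested genes in the 18. For day 7 minus day 2 it was 11, against 51.9%, with 0 of 5 in SREBP control and a median of −0.66 there, or 1 of 5 and −0.34 without the doubtful libraries. For day 7 minus day 4 it was 14, against 53.6%, with 0 of 5 in SREBP control (median −0.50, and −0.45 without the doubtful libraries). Insig1 gave −1.57 (SE 1.03) for day 7 minus day 2 (adjusted p 0.932 in edgeR) and −2.03 (SE 0.46, adjusted p 0.304 in edgeR) without the doubtful libraries and with the replicate block, the lowest adjusted p of any member in that fit and contrast. Srebf2 gave −0.76 (SE 0.48) and Abcg1 1.82 (SE 0.96), with adjusted p of 0.920 and 0.896 in edgeR. Without the doubtful libraries and with no block, Insig1 gave −1.13, Srebf2 −0.34 and Abcg1 0.91. At an unadjusted p under 0.05, 1 member, Mvd, was higher for day 7 minus day 4 (1.84 (SE 0.85)), against 2.83% of all tested genes, and its value was 0.82 without the doubtful libraries.

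Over time within one kind of culture, no member passed, and 0% of genes passed with neurons and 0% alone. At day 7, 11 of 29 members were fitted higher than at day 2 in cells with neurons (median −0.27, or −0.15 without the doubtful libraries), against 51.2% of all tested genes, and in cells alone 15 (median 0.043), against 51%. The SREBP control genes had a median of −0.37 with neurons, where 0 of 5 were fitted higher at day 7, and of 0.32 alone, where 4 of 5 were. Without the doubtful libraries the medians were −0.24 with neurons, with 2 of 5 higher, and 0.10 alone, with 5 of 5 higher. Insig1 gave −0.59 (SE 0.72) with neurons and 0.98 (SE 0.74) alone, or −0.44 and 0.70 without the doubtful libraries. At an unadjusted p under 0.05, 1 member was higher at day 7 with neurons, Abcg1, with 1.86 (SE 0.68) and an adjusted p of 0.294 in edgeR, against 10% of all tested genes, and its value was 0.97 without the doubtful libraries. These values share libraries with the contrasts of the cultures, so they are no separate evidence.

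Many members also differed between the dates of the cultures. Over the 16 libraries, the median of replicate 3 was the highest of the 3 dates in 22 of the 29 members, against 33.6% of all tested genes. For Soat1 every replicate 3 library, at 142 to 201 CPM, was above every other, the highest of which had 128 CPM, against 1.15% of genes with such a gap. Cyp51 had a median of 164 CPM in replicate 3, against 84.4 and 75.3 CPM in replicates 1 and 2, and Insig1 had 197, 76.6 and 50.3 CPM in the same order. Srebf1 had 203, 86.3 and 95.1 CPM. Scap went the other way, with 188, 244 and 205 CPM, as did Nr1h2, with 32.3, 49.5 and 49.9 CPM.

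The sum of the astrocyte markers differed between the dates too, though not every marker in it did so. This sum was 4307 to 5825 CPM in the 6 libraries of replicate 3, against 1018 to 2048 CPM in 4 of replicate 1 and 2169 to 2695 CPM in 6 of replicate 2. Gfap had a large part in it, at 1245 to 1963 CPM in replicate 3 and 67.6 to 176 CPM in those 4 of replicate 1. Other markers did not follow. At day 4 with neurons, Slc1a2 had 40.6, 242 and 211 CPM and Aldh1l1 284, 217 and 202 CPM in replicates 1, 2 and 3. Microglia and macrophage markers summed to 4.12 to 13.2 CPM in replicate 3, 6.10 to 65.1 CPM in replicate 1 and 97.9 to 411 CPM in replicate 2. Fibroblast markers summed to 58.9 to 233, 26.8 to 71.6 and 31.8 to 110.4 CPM in replicates 3, 1 and 2. Their part in the levels of the members was not tested.

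**Figure D4:**
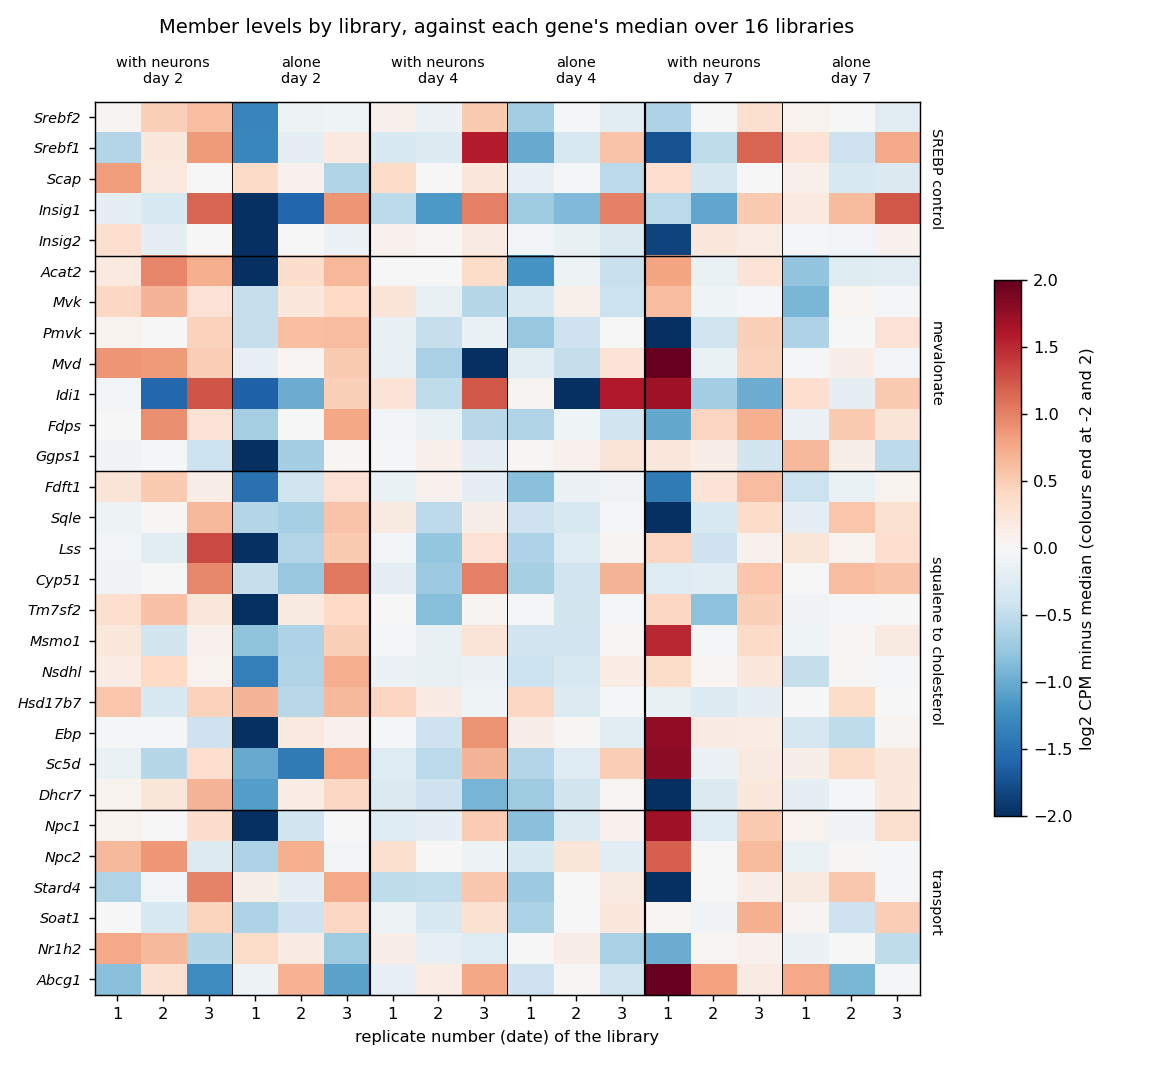
Log2 CPM of each of the 29 tested members in each library minus the gene's median over 16 libraries, with libraries in columns by day (cells with neurons left of cells alone, replicates 1 to 3) and members in rows by step. Colours end at −2 and 2. Replicate 3 columns are red in many rows, and the 2 doubtful libraries, replicate 1 alone at day 2 and replicate 1 with neurons at day 7, stand out as mixed or blue columns.

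The doubtful day 7 library with neurons was above all 16 others in 8 members (Mvd, Idi1, Msmo1, Ebp, Sc5d, Npc1, Npc2 and Abcg1), as in 26.9% of all tested genes, and below all 16 in 9 (Srebf1, Insig2, Pmvk, Fdps, Fdft1, Sqle, Dhcr7, Stard4 and Nr1h2), as in 30.5%. Dhcr7 had 3 reads there, or 0.504 CPM, and Stard4 11 reads, or 1.85 CPM, against at least 7.57 and 15.0 CPM in the 16. All 5 members with the smallest unadjusted p at day 7, Ebp, Npc2, Abcg1, Mvd and Msmo1, are among the 8 that were above all others in it.

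Other genes of cholesterol metabolism and SREBP control, 33 in number and all tested, gave no call at any day. Of these, 29 were fitted higher with neurons at day 2 (median 0.38), 21 at day 4 (median 0.13) and 15 at day 7 (median −0.049). Of all tested genes 53.3%, 48.6% and 50.2% were. Without the doubtful libraries fewer of the 33 were fitted higher at day 2, though still most. Past an unadjusted p of 0.05 in edgeR were 1, 1 and 2, all higher, against 0.472%, 0.0907% and 8.1% of all tested genes. The count at day 7 is thus no more than the background. At day 4 that gene was Ch25h, the cholesterol 25-hydroxylase, with 0, 0.179 and 1.37 CPM with neurons and 0 reads in all 3 libraries alone, so that its difference rests on few reads. At day 7 they were Rnf139, an endoplasmic reticulum ubiquitin ligase, with 181, 49.5 and 48.9 CPM with neurons, against 58.7, 39.1 and 39.7 CPM alone, and Erlin1, a membrane protein of the endoplasmic reticulum, with 159, 15.1 and 12.7 CPM with neurons, against 20.2, 13.9 and 20.1 CPM alone. In both the first value is that of the doubtful library. Of 16 targets of SREBP1 in fatty acid synthesis, all tested, 11, 13 and 5 were fitted higher with neurons at days 2, 4 and 7. Of all tested genes it was 53.3%, 48.6% and 50.2%. The medians of the 16 were 0.10, 0.21 and −0.22, with 0 calls in edgeR and 0 past an unadjusted p of 0.05. Without the doubtful libraries several of the 16 changed sign at day 2, most of them to lower, so the day 2 count does not hold there. With replicate number as a block as well, most of the list was fitted higher at day 2 again.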

How the data were processed

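The 18 libraries, 6 groups of 3, were made from total RNA depleted of ribosomal RNA, per the labels' protocols. What the authors deposited is a table of raw read counts for each gene. The submitters' processing notes name Subread, featureCounts and mm9, with no versions. The strand setting of the counting is not given in the sources here. A further 17 columns, correlations between libraries, were not used. RefSeq gave symbols for 24191 of 26301 IDs.

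The members and gene lists were chosen with earlier results of these data known. Tests came from edgeR 4.0.16 in R 4.3.3 by quasi-likelihood F (TMM scaling, filterByExpr by group, 6 group means over 18 libraries, Benjamini-Hochberg adjustment over 16539 genes, adjusted p under 0.05), checked on simulated data. Pair differences use log2 CPM with a prior count of 2. By rule, the text gives Srebf2, Srebf1, Insig1, Hmgcs1, Sqle and, per day, the 5 members with the smallest unadjusted p, with every library. Other members shown this way were chosen after their values were seen. Replicate numbers pair the samples, as each has one date in the labels, and residuals from group means correlated at 0.108 to 0.469 within the 9 pairs (−0.346 to −0.010 across numbers). Residuals of a group sum to 0, so these ranges are tied and the one across numbers is no separate support. No group held the same library more than once, by a chi-square comparison of counts. Alternatives were DESeq2 1.42.0, other scaling and filters, a replicate block, 16 libraries and leaving out libraries. Promoter windows come from RefSeq on GRCm38.p6, and exon overlaps from GENCODE on GRCm38, which is not the build of the files. A few genes of the further pathway list are not reported here by name.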

Additional observations from a re-analysis of the deposited data

Results flagged for a closer look

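The difference between cells with neurons and cells alone ran in opposite directions at different days in every pair for Insig1 and Abcg1. For Insig1 the mean log2 pair difference, with neurons minus alone, was 1.40 at day 2 (3 of 3 pairs higher) and −1.04 at day 7 (3 of 3 pairs lower), or 0.78 and −1.19 over the 2 pairs of each day without a doubtful library. For Abcg1 it was −0.44 at day 2 (3 of 3 pairs lower), 0.52 at day 4 (3 of 3 higher) and 1.17 at day 7 (3 of 3 higher), or −0.30 at day 2 and 0.95 at day 7 without the doubtful pairs. The flip itself is a description. The share of all tested genes with such a flip was not computed, so it is not known whether these members stand out from other genes. The difference between the days, tested in edgeR as day 7 minus day 2, was −1.57 for Insig1 (adjusted p 0.932) and 1.82 for Abcg1 (adjusted p 0.896), and neither passed. One of the 3 pairs at day 2 and one at day 7 hold a doubtful library, in which Insig1 had 2 reads and Abcg1 1 read at day 2 alone. Several of these pairs differ little: on the log2 scale Insig1 differed by 0.28 in replicate 3 at day 2, and Abcg1 by −0.19 in replicate 3 at day 2, by 0.26 and 0.12 in replicates 1 and 2 at day 4 and by 0.18 in replicate 3 at day 7.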

How the results depend on the processing

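No member was called under any alternative run. DESeq2 called 22 genes at day 2, 5 at day 7, 242 for day 7 against day 2 with neurons, 3 for day 7 against day 2 alone and 3 for the effect at day 7 minus day 2, where edgeR called 0 genes. The numbers pair the samples: the replicate block called 1 gene at day 7 and 1 for day 7 against day 2 with neurons, and with 16 libraries the block called 16 genes at day 2, 18 at day 7, 17 for day 7 against day 2 with neurons, 17 alone, and 14, 23 and 15 for the effect at day 4 minus day 2, day 7 minus day 2 and day 7 minus day 4. The cause of these added calls was not tested. Upper-quartile scaling moved the median of all genes by −0.15 at day 7 and −0.11 for the average of the days, and gave a member median of −0.048 at day 7, against 0.16 with TMM. Leaving out libraries turned the sign of 8 values of single members: Insig1 at day 2 ran from −0.022 (without replicate 3 with neurons) to 2.23 (without replicate 3 alone), Abcg1 at day 2 from −1.11 (without replicate 2 with neurons) to 0.36 (without replicate 2 alone), Srebf1 at day 4 from −0.17 (without replicate 3 with neurons) to 1.28 (without replicate 3 alone), Insig1 at day 4 from −0.87 to 0.89, Sqle at day 4 from −0.0092 to 0.39, Srebf2 at day 7 from −0.34 to 0.19, Srebf1 at day 7 from −1.32 to 0.26 and Scap at day 7 from −0.013 to 0.33. At day 7, 16 libraries turned Srebf2 (−0.017) to 0.15, Srebf1 (−0.16) to 0.22 and Scap (0.18) to −0.043, the block with 16 libraries turned Srebf2 to 0.050, and upper-quartile scaling turned Scap to −0.023. Member medians ran from −0.16 to 0.15 at day 7, from −0.47 to −0.047 for day 7 against day 2 with neurons and from −0.26 to 0.025 for the effect at day 7 minus day 4. Genes called for the effect at day 7 minus day 2 ran from 0 to 1. Leaving out a single library keeps its pair partner in the fit, so that the dates are then unequal between the cultures. The member median for the effect at day 4 minus day 2, −0.12, was 0.023 in 16 libraries and up to 0.099 when libraries were left out, and that at day 4, 0.12, was −0.0092 without replicate 1. Signs were followed under every alternative for Srebf2, Srebf1, Scap, Insig1 and Sqle at each day, Abcg1 at days 2 and 7, and the 5 members with the smallest p of each day, not for the other members. Depth limits the doubtful day 2 library most, where a member at 20.2 CPM is 3 reads.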
